A study of Mus musculus with 8 samples.

Results

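The genes described here carry amino acids and small peptides across the membranes of intestinal cells, and their levels were read on 8 Affymetrix arrays of mouse small intestinal epithelium. The genes were taken by name: Slc15a1, Slc6a19, Slc6a20a, Slc7a7, Slc7a8, Slc7a9, Slc3a1, Slc3a2, Slc1a1 and Slc36a1. These are 10 of 19938 measured genes, each read by 1 probe set that names no other gene. All arrays came from male ICR mice, an outbred stock, aged 8 weeks, whose small intestine had been transfected in the living animal 4 days before RNA was taken. In the siRNA arm, 3 arrays had received an siRNA against GFP (siGFP), a jellyfish protein that mice lack, and 3 had received siRNAs against YAP and TAZ (siYAP/TAZ). In the shRNA arm, 1 array had received a plasmid expressing an shRNA against bacterial LacZ (shLacZ) and 1 had received plasmids expressing shRNAs against YAP and TAZ (shYAP/TAZ). YAP and TAZ (the product of Wwtr1) switch on transcription with DNA-binding partners and are held back by Hippo signalling; the series was set up to see how the epithelium's transcripts change when both are lowered. The labels give no share of transfected cells. They do not say whether arrays of 1 group came from different mice, so each p-value covers the spread between samples that may be technical repeats.

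Digested protein is taken up from the gut lumen as free amino acids and as short peptides. Carriers of the brush border, the microvillus surface facing the lumen, bring them in with sodium or protons, and carriers of the basolateral membrane pass them on to the blood. Several carriers work as pairs of a heavy chain, which brings the complex to the membrane, and a light chain, which forms the transport path. Most of these genes are known as genes of absorptive enterocytes and differ in level along the length of the gut.

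The isolates carried the markers of absorptive epithelium, and they differed among themselves in ways that ran across the groups. The median log2 intensity of 12 villus enterocyte markers lay between 11.04 and 12.44 on the 8 arrays, against 4 for the lowest values of an array. The median of 10 crypt base stem cell markers lay between 6.31 and 8.15, and that of 12 ileal markers between 6.81 and 9.02. The median of 7 B and plasma cell markers lay between 4.96 and 5.74 on 6 arrays and at 8.31 on siYAP/TAZ 2 and 6.94 on siYAP/TAZ 3. The targeted genes were not lower beyond the spread between arrays: the log2 difference between siYAP/TAZ and siGFP was -0.12 for Yap1 (exact two-sided permutation p = 0.8) and -0.28 for Wwtr1 (exact two-sided permutation p = 0.6), and in the shRNA arm it was -0.093 and 0.062. The groups are therefore named by their labels.

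Across the 10 transporters, Slc6a20a had the lowest and Slc36a1 the highest difference of knockdown-labelled from control arrays, in both arms. Both kept their direction in all 4 comparisons of a knockdown array with the control array named for it in the labels. Slc6a20a encodes a sodium-driven carrier of proline and related imino acids, and was 2.74-fold lower in the siRNA arm and 3.03-fold lower in the shRNA arm. Slc36a1 encodes a proton-driven carrier of small neutral amino acids such as proline and glycine, and was 2.17-fold higher and 2.36-fold higher. In limma's fit over all genes, 0 of the 10 passed an adjusted p of 0.05 in the siRNA arm, where 0 of 19938 genes (0.0%) passed. At an unadjusted p under 0.05 there were 1 of the 10, Slc6a20a, and 237 genes in all (1.19%). In the mean, 9 of the 10 were lower in siYAP/TAZ, where 53.6% of all genes were lower, and the median log2 difference was -0.17 over the 10 and -0.024 over all genes. In the shRNA arm 6 of the 10 were lower, as were 52.2% of all genes, and 4 were higher, as were 47.8%. With array weights that median turned to 0.16, and without siGFP 1 it was -0.43. A direction shared by all 4 comparisons was seen for 3 of the 10, and for 15.0% of all genes.

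**Figure D1:**
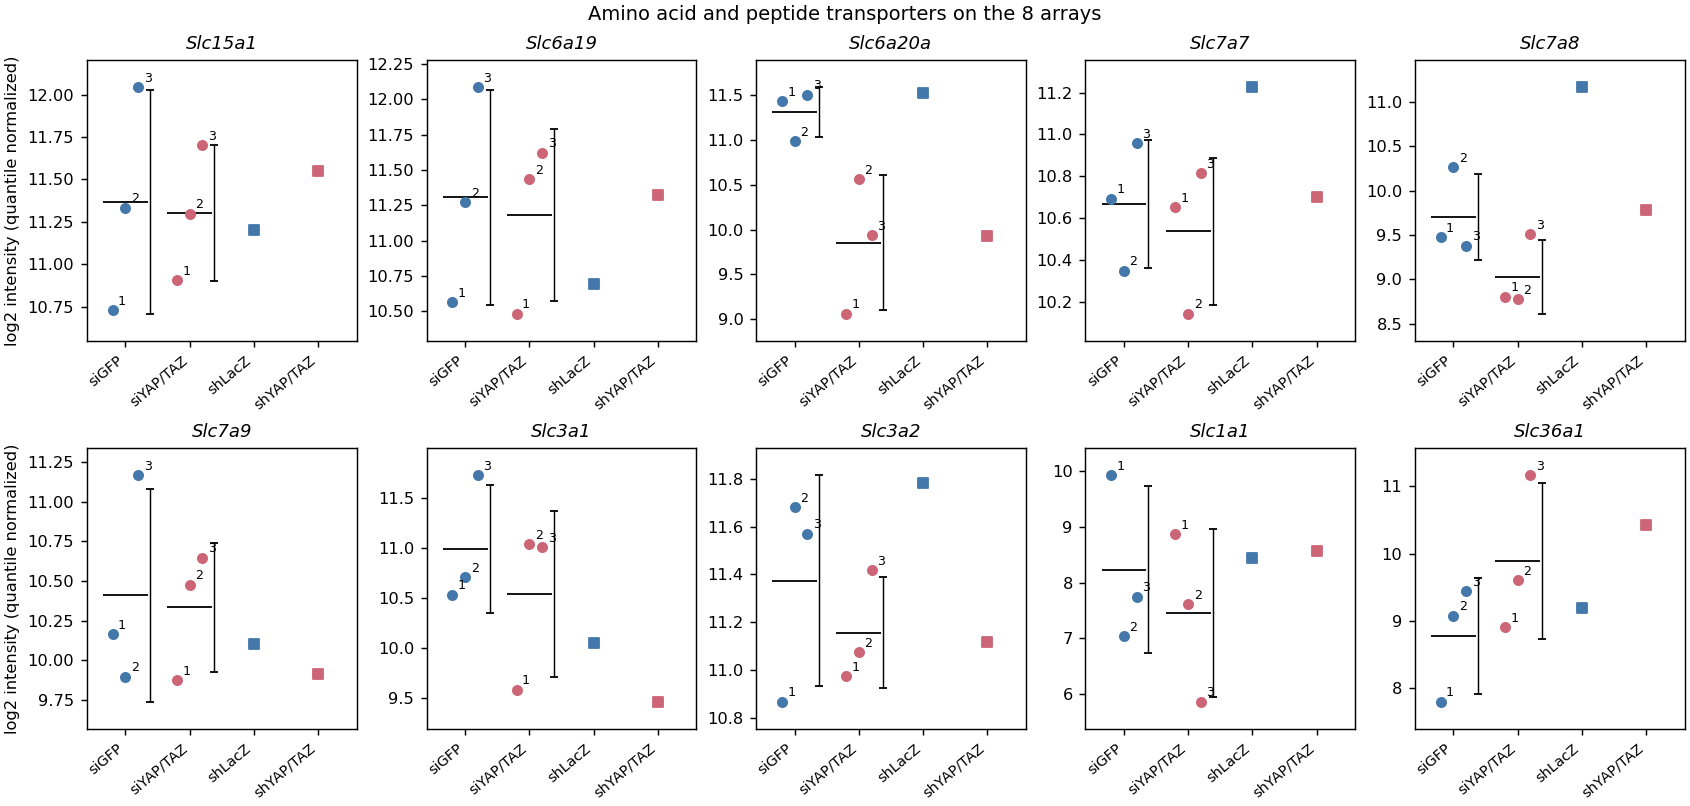
Log2 intensity (y axis, quantile normalized) of each transporter gene by group (x axis); points are arrays, numbers are replicate numbers, lines are siRNA group means and bars 1 SD (n = 3), and squares are the single shRNA arrays. The 3 siYAP/TAZ arrays lie below the 3 siGFP arrays for Slc6a20a, at 9.06 to 10.56 against 10.99 to 11.51, and the groups overlap for the other 9 genes.

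Slc6a20a was the one member whose siRNA groups did not overlap. Its log2 intensity was 11.43, 10.99 and 11.51 on siGFP 1, 2 and 3, and 9.06, 10.56 and 9.94 on siYAP/TAZ 1, 2 and 3. It was 11.53 on shLacZ 1 and 9.93 on shYAP/TAZ 1. All 4 control arrays lay above all 4 arrays labelled as knockdowns, with the lowest control, siGFP 2, and the highest knockdown array, siYAP/TAZ 2, in the same comparison. The share of all genes with this order was not computed. The siRNA means were 11.31 ± 0.28 (SD, n = 3) and 9.86 ± 0.75 (SD, n = 3), and their log2 difference was -1.46 (SE 0.41; 95% interval from -2.39 to -0.52; limma adjusted p = 1.00; lower in 3 of 3 comparisons). The exact two-sided permutation p was 0.1, the smallest that 3 arrays against 3 allow. Of all genes, 2.99% had all 3 siYAP/TAZ arrays below the siGFP arrays and 1.6% had all 3 above, where no member lay. Together with Slc6a20a, 46 genes (0.231%) were lower in all 4 comparisons and at least 2-fold lower in both arms. The 4 comparisons gave log2 differences of -2.37, -0.42, -1.57 and -1.60, and the shRNA arm has no replicate. In bulk RNA, fewer cells of a type and less RNA per cell cannot be told apart.

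The medians of the crypt base stem cell and villus enterocyte marker lists were also lower in the arrays labelled as knockdowns than in their control arrays. The median of 10 crypt base markers was 8.15, 8.11 and 6.34 on the siGFP arrays, 7.10, 6.35 and 6.31 on the siYAP/TAZ arrays, 7.23 on shLacZ 1 and 6.93 on shYAP/TAZ 1. It was lower in all 4 comparisons, as were 6 of the 10 markers and 8.95% of all genes. The median of 12 villus enterocyte markers was 11.58, 12.06 and 12.44 on the siGFP arrays, 11.04, 11.94 and 12.25 on the siYAP/TAZ arrays, 11.79 on shLacZ 1 and 11.31 on shYAP/TAZ 1. It too was lower in all 4 comparisons, as were 4 of the 12 markers (Alpi, Sis, Fabp2 and Apob) and 8.95% of all genes. With arrays centred on the 75th percentile, 3 of the 12 were. In the siRNA mean 9 of the 12 villus markers were lower and 3 higher, and in the shRNA arm 7 were lower and 5 higher. The siRNA groups overlapped in the villus median, and in the crypt base median through siGFP 3. Other crypt lists differed. The median of 7 mitotic markers was 8.41, 8.03 and 5.42 on the siGFP arrays and 8.87, 6.04 and 5.91 on the siYAP/TAZ arrays. It was 7.95 on shLacZ 1 and 8.04 on shYAP/TAZ 1, so it was lower in comparison 2 only. The median of 6 Paneth markers was 10.11, 10.49 and 7.84 against 10.12, 7.99 and 7.94, and 10.43 against 9.58 in the shRNA arm. It was lower in comparison 2 and the shRNA arm only. The 11 proximal small intestine markers had medians of 6.95, 8.62 and 7.43 on the siGFP arrays and 6.30, 7.61 and 8.73 on the siYAP/TAZ arrays, so those groups overlapped. The part of these cell types, and of the B and plasma cell RNA on siYAP/TAZ 2 and 3, in the Slc6a20a result was not tested. Without siYAP/TAZ 1 the Slc6a20a difference was -1.06, and after leaving out both arrays numbered 1, an alternative added once the values were known, it was -0.997.

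Slc6a20b, the neighbouring gene of the same family, showed the same order of groups at a dim level. Its log2 intensity was 6.40, 6.62 and 6.02 on the siGFP arrays, 5.39, 5.89 and 5.55 on the siYAP/TAZ arrays, 6.39 on shLacZ 1 and 5.23 on shYAP/TAZ 1. All 4 control arrays again lay above the 4 knockdown-labelled arrays, an order whose share over all genes was not computed. Of all genes, 2.99% had all 3 siYAP/TAZ arrays below the siGFP arrays, and 8.95% were lower in all 4 comparisons. The siRNA log2 difference was -0.74 (SE 0.31; limma adjusted p = 1.00; exact two-sided permutation p = 0.1). The genes are similar in sequence and can share array signal, so the values of Slc6a20b are uncertain as those of a single gene.

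The 250 bases before the start of both neighbours are shown because their levels differed in the same direction in all 4 comparisons, beside those of Slc36a1, which differed the other way. The sequences are from RefSeq on GRCm38.p6, which held promoters for 10 of the 10 transporters. Slc6a20a lies at chr9:123678833-123679082 on the minus strand, Slc6a20b at chr9:123632539-123632788 on the minus strand and Slc36a1 at chr11:55204090-55204339 on the plus strand. Capitals mark matches to any of 6 motifs, searched on both strands.
Slc6a20a: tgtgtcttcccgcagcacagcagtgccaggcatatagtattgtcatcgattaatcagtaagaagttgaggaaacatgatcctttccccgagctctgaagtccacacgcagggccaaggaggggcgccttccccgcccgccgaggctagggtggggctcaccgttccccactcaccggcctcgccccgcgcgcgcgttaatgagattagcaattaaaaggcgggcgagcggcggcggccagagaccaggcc
Slc6a20b: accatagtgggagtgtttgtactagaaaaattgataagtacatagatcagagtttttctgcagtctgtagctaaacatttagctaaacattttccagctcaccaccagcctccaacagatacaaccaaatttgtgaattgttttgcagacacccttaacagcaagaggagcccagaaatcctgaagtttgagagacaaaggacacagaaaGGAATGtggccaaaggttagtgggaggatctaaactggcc
Slc36a1: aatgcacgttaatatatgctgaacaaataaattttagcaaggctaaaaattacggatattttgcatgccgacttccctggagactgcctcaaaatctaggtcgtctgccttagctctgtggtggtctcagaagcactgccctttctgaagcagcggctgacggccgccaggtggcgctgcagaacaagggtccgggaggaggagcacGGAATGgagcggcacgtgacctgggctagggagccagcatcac
The motifs were GGAATG of TEAD factors, the DNA-binding partners of YAP and TAZ, TTTATNG of CDX, AGATAA of GATA, CAAAGTCCA of HNF4, TGATGNAAN of the amino acid response factor ATF4 and TGANTCA of AP-1. GGAATG was in the windows of Slc6a20b and Slc36a1, starting 40 and 43 bases before the start site, and in 12.6% of 32851 windows of this length. Of the 10 transporters, 2 held it, Slc36a1 and Slc7a7 (starting 208 bases before the start site), in 2 of the 15 windows listed for the 10. The Slc6a20a window held none of the 6 motifs. It had 61.2% G and C and 21 CG pairs, against 41.6% and 0 in Slc6a20b and medians of 52.4% and 6 over all windows.

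Slc36a1 was higher in all 4 comparisons, where 6.02% of all genes were higher in all 4. Its log2 intensity was 7.80, 9.08 and 9.44 on the siGFP arrays and 8.90, 9.60 and 11.17 on the siYAP/TAZ arrays, with 9.19 on shLacZ 1 and 10.43 on shYAP/TAZ 1. The siRNA groups overlapped, because siYAP/TAZ 1 lay below siGFP 2 and 3, and the control of that comparison, siGFP 1, was the lowest of the 8 arrays. The siRNA means were 8.77 ± 0.86 (SD, n = 3) and 9.89 ± 1.16 (SD, n = 3), and their log2 difference was 1.12 (SE 0.62; 95% interval from -0.29 to 2.54; limma adjusted p = 1.00; higher in 3 of 3 comparisons; exact two-sided permutation p = 0.4). The comparisons gave log2 differences of 1.11, 0.53, 1.73 and 1.24. Slc36a1 was among 39 genes (0.196%) that were higher in all 4 comparisons and at least 2-fold higher in both arms. The siRNA difference was 0.48 without siYAP/TAZ 3 and 0.63 without siGFP 1. Slc9a3, the brush border exchanger of sodium for protons that helps to keep up the proton gradient, was also higher in all 4 comparisons, at 0.85, 0.62, 1.12 and 1.56. Its siRNA groups overlapped (exact two-sided permutation p = 0.4). It was 1 of 4 measured genes listed as ion pumps and exchangers, among them the scaffold Slc9a3r1. The other 3 were lower in all 4 comparisons, as were 8.95% of all genes, and 2 were with arrays centred on the 75th percentile.

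**Figure D2:**
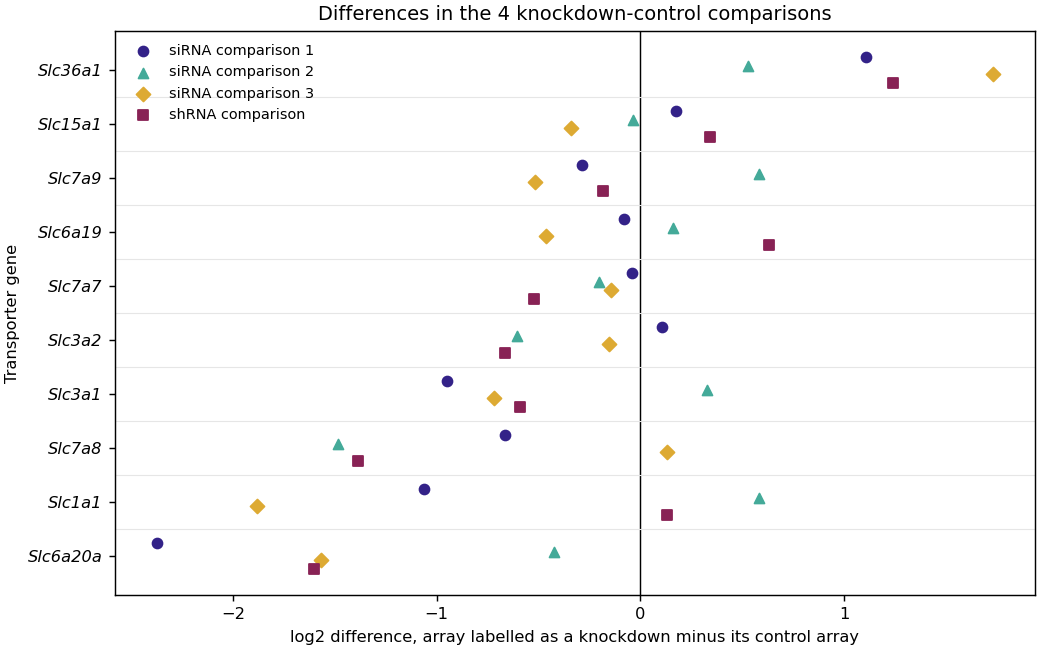
Log2 difference (x axis) of each array labelled as a knockdown from its control array, for each transporter gene (y axis, ordered by the siRNA mean difference); symbols are the 3 siRNA comparisons and the shRNA comparison. Slc6a20a lies below 0 in all 4, from -2.37 to -0.42, and Slc36a1 above 0 in all 4, from 0.53 to 1.73; most other genes have symbols on both sides.

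The major brush border carriers of peptides and neutral amino acids differed between the groups by less than the spread between arrays. Slc15a1, the proton-driven carrier of di- and tripeptides, was at 10.73, 11.33 and 12.04 on the siGFP arrays, 10.91, 11.30 and 11.70 on the siYAP/TAZ arrays, 11.20 on shLacZ 1 and 11.55 on shYAP/TAZ 1. Its siRNA log2 difference was -0.066 (SE 0.40; 95% interval from -0.97 to 0.84). Slc6a19, the main sodium-driven carrier of neutral amino acids, was at 10.56, 11.27 and 12.08 on the siGFP arrays, 10.48, 11.43 and 11.62 on the siYAP/TAZ arrays, 10.69 on shLacZ 1 and 11.32 on shYAP/TAZ 1. Its siRNA log2 difference was -0.13 (SE 0.46, 95% interval from -1.18 to 0.93). In both genes the arrays numbered 1 were the lowest of their groups and those numbered 3 the highest, and the intervals allow differences of about 2-fold in either direction. The villus marker medians given above had the same order within each group. In the shRNA arm both genes were higher and the villus median lower on shYAP/TAZ 1. The part of the villus cell content in these values was not tested.

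The heavy chain Slc3a1 and its light chain Slc7a9, which together bring cystine and basic amino acids in from the lumen, had similar patterns over the arrays. Slc3a1 was at 10.54, 10.71 and 11.72 on the siGFP arrays, 9.59, 11.04 and 11.01 on the siYAP/TAZ arrays, 10.06 on shLacZ 1 and 9.47 on shYAP/TAZ 1. Slc7a9 was at 10.17, 9.90 and 11.17 on the siGFP arrays, 9.88, 10.48 and 10.65 on the siYAP/TAZ arrays, 10.10 on shLacZ 1 and 9.91 on shYAP/TAZ 1. Both were highest on siGFP 3, and siYAP/TAZ 1 and shYAP/TAZ 1 were among the 3 lowest arrays of each. The siRNA log2 differences were -0.45 (SE 0.49) for Slc3a1 and -0.075 (SE 0.40) for Slc7a9, and the groups overlapped in both. In comparison 2 both were higher, at 0.33 and 0.58, and in the other 3 comparisons both were lower.

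Over the 8 arrays, Pearson's r between Slc3a1 and Slc7a9 was 0.86 (exact permutation p = 0.00429, adjusted over 3 pairs of chains 0.0129) and Spearman's rho was 0.79 (exact permutation p = 0.0279, adjusted 0.0838). Without siGFP 3 and shYAP/TAZ 1, the arrays farthest from the Slc3a1 median, r was 0.73, and over the 6 siRNA arrays it was 0.86. Members that are not partners had r values, given as a description over the same 8 arrays, of 0.94 for Slc15a1 and Slc6a19, 0.76 for Slc6a19 and Slc7a9, and 0.71 for Slc6a19 and Slc3a1. The arrays share the differences in villus, crypt and ileal markers given above, whose part in the correlation was not tested. The permutation p-values of all 3 pairs of chains take the 8 arrays as independent and exchangeable, although they come from different groups and arms. The plan gave correlations between members as a description with no p-value, so these were added to it.

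The promoter windows of Slc3a1, at chr17:85028097-85028346 on the plus strand, and of the first start of Slc7a9, at chr7:35448842-35449091 on the plus strand, are shown because the genes encode the 2 chains of 1 carrier. Capitals again mark motif matches.
Slc3a1: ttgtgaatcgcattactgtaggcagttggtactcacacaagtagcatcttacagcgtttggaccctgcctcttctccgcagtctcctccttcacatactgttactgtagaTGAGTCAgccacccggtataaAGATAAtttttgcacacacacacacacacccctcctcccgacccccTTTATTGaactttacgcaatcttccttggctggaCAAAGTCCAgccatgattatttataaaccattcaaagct
Slc7a9: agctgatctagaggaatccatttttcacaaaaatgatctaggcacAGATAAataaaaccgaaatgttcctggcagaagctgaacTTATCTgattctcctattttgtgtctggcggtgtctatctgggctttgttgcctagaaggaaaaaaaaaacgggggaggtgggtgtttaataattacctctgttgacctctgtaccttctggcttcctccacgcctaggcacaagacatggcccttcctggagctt
AGATAA, read on either strand, was in both windows and in 9.99% of all windows. Of the 10 transporters 3 held it, Slc3a1, Slc7a9 and Slc7a7, in 4 of the 15 windows listed for the 10. The Slc3a1 window also held CAAAGTCCA, starting 39 bases before the start site and found in 0.384% of all windows, TTTATTG as a form of the CDX motif, found in 9.81%, and TGAGTCA as a form of the AP-1 motif, found in 6.75%. A second listed start of Slc7a9, 87 bases further on, had a window with no match.

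On the basolateral side, Slc7a8 stood lower in 3 of 4 comparisons. Its heavy chain Slc3a2, and Slc7a7, another light chain of Slc3a2, differed less in the siRNA mean and in the shRNA arm. Slc7a8, a light chain for neutral amino acids, was at 9.47, 10.26 and 9.38 on the siGFP arrays, 8.81, 8.78 and 9.51 on the siYAP/TAZ arrays, 11.16 on shLacZ 1 and 9.78 on shYAP/TAZ 1. The siRNA groups overlapped through siYAP/TAZ 3, and shLacZ 1 was the highest of the 8 arrays. The siRNA log2 difference was -0.67 (SE 0.36, 95% interval from -1.50 to 0.15; limma adjusted p = 1.00; exact two-sided permutation p = 0.3). In the shRNA arm it was 2.61-fold lower, with no replicate, and without siGFP 2 the siRNA difference was -0.39. With Slc6a20a it was 1 of 2 members at least 2-fold lower in the shRNA arm, as were 2.76% of all genes; Slc36a1 was the 1 member at least 2-fold higher, as were 1.84%.

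Slc7a7, the light chain that passes basic amino acids to the blood in exchange for neutral ones and sodium, was at 10.69, 10.35 and 10.96 on the siGFP arrays and 10.65, 10.14 and 10.81 on the siYAP/TAZ arrays. It was 11.23 on shLacZ 1 and 10.70 on shYAP/TAZ 1. Slc7a7 was lower in all 4 comparisons, as were 8.95% of all genes, but the siRNA values of -0.042, -0.21 and -0.14 were small. Comparison 1 turned to 0.071 with arrays centred on the 75th percentile and to 0.031 without normalization. Slc3a2, the heavy chain for Slc7a7 and Slc7a8, was at 10.87, 11.68 and 11.57 on the siGFP arrays, 10.97, 11.08 and 11.42 on the siYAP/TAZ arrays, 11.78 on shLacZ 1 and 11.12 on shYAP/TAZ 1. Its siRNA log2 difference was -0.22 (SE 0.33, 95% interval from -0.96 to 0.53), from -0.47 without siGFP 1 to -0.063 without siGFP 2 when 1 array was left out, and it had the narrowest range of the 10 genes over the 8 arrays, 0.91.

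Over the 8 arrays, Slc3a2 and Slc7a8 had a Pearson's r of 0.74 (exact permutation p = 0.0296, adjusted 0.0444) and a Spearman's rho of 0.69 (exact permutation p = 0.0694, adjusted 0.104). That relation rested on siGFP 2 and shLacZ 1, without which r was 0.28; over the 6 siRNA arrays r was 0.69. Slc3a2 and Slc7a7 had an r of 0.43 (exact permutation p = 0.296, adjusted 0.296), a rho of 0.50 (exact permutation p = 0.216, adjusted 0.216), an r of 0.53 without the same 2 arrays and an r of 0.14 over the siRNA arrays.

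**Figure D3:**
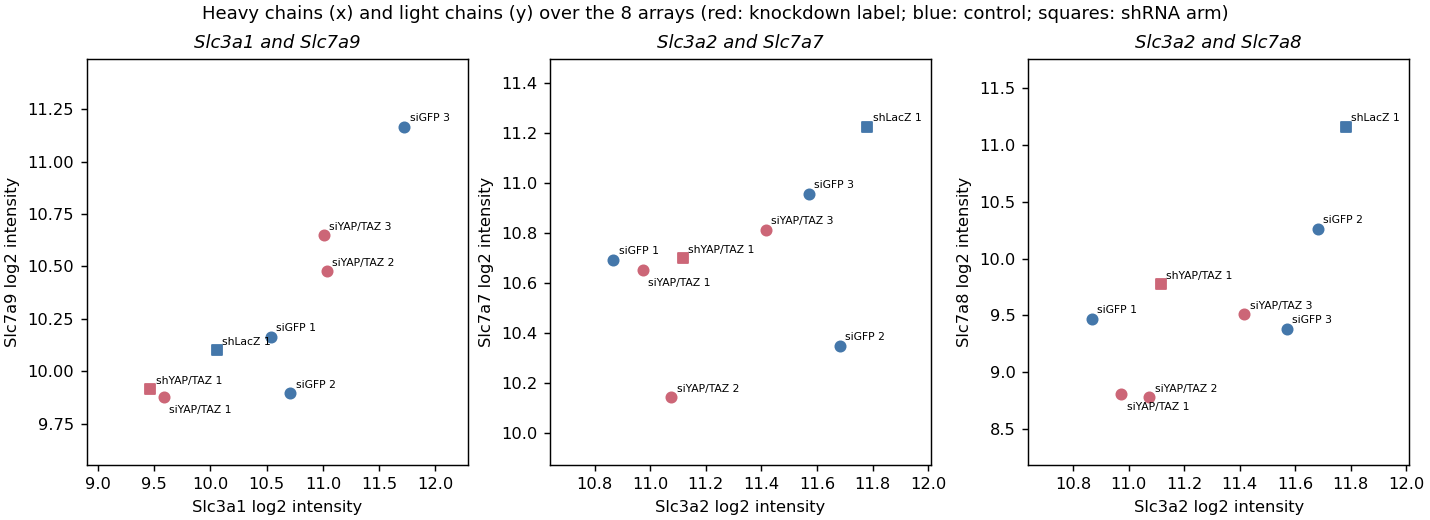
Log2 intensity of a heavy chain (x axis) against that of its light chain (y axis) on the 8 arrays; each point is 1 array, red for knockdown labels, blue for controls, squares for the shRNA arm. Slc3a1 and Slc7a9 rise together (r = 0.86), while the relation of Slc3a2 and Slc7a8 (r = 0.74) rests on siGFP 2 and shLacZ 1 and Slc3a2 and Slc7a7 scatter more (r = 0.43).

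Slc1a1, the sodium-driven carrier of glutamate and aspartate, varied most among the 10 genes. It was at 9.93, 7.03 and 7.75 on the siGFP arrays, 8.87, 7.62 and 5.86 on the siYAP/TAZ arrays, 8.44 on shLacZ 1 and 8.57 on shYAP/TAZ 1. Its highest and lowest arrays, siGFP 1 and siYAP/TAZ 3, lay 16.7-fold apart, and the SD over the 8 arrays was at percentile 98.7 of all genes. The siRNA log2 difference of -0.79 (SE 0.87, 95% interval from -2.77 to 1.20; exact two-sided permutation p = 0.5) turned to 0.058 when siGFP 1 was left out and to 0.0048 when siYAP/TAZ 3 was. Comparison 2 went the other way, at 0.58, and the shRNA arm differed by 0.13.

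Markers of the ileum differed widely between the same isolates. Fabp6, the ileal bile acid binding protein, was at 11.16, 4.24 and 10.45 on the siGFP arrays, 8.75, 11.93 and 4.40 on the siYAP/TAZ arrays, and 4.33 and 4.27 on shLacZ 1 and shYAP/TAZ 1. In the siRNA arm the 2 arrays with the least Fabp6, siGFP 2 and siYAP/TAZ 3, were also the 2 lowest for Slc1a1. Slc10a2, the ileal bile acid carrier, was low on the same 2 siRNA arrays, at 4.79 and 4.55, against 8.56 to 9.28 on the other 4. In the shRNA arm Fabp6 was near the lowest values on both arrays. Slc10a2 was at 4.55 on shLacZ 1 and 6.53 on shYAP/TAZ 1. Slc1a1 was at 8.44 and 8.57, so the order of the siRNA arrays did not extend to the shRNA arrays. The part of the gut region in the Slc1a1 values was not tested.

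**Figure D4:**
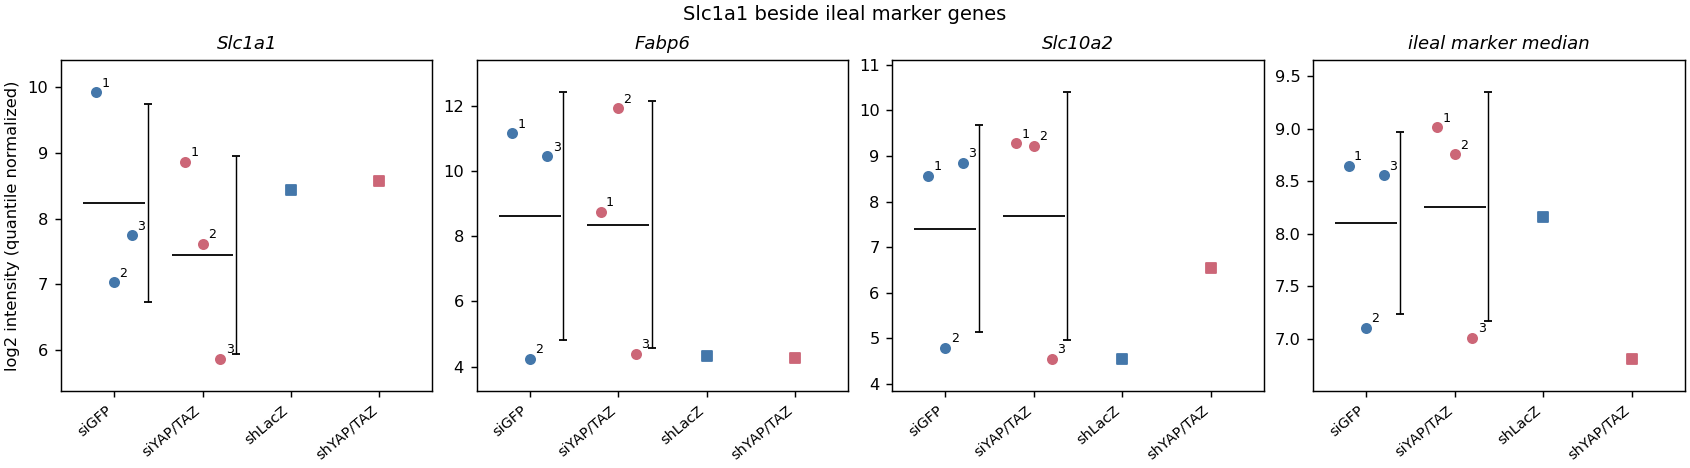
Log2 intensity (y axis) of Slc1a1, of the ileal genes Fabp6 and Slc10a2 and of the median of 12 ileal markers, by group (x axis); points are arrays, lines siRNA group means, bars 1 SD (n = 3) and squares the shRNA arrays. Of the siRNA arrays, siGFP 2 and siYAP/TAZ 3 are the 2 lowest in every panel; the shRNA arrays hold little Fabp6 but Slc1a1 at 8.44 and 8.57.

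The arms were also compared with each other. The siRNA difference minus the shRNA difference was 0.15 for Slc6a20a (95% interval from -1.72 to 2.01), -0.12 for Slc36a1 (95% interval from -2.95 to 2.71) and 0.71 for Slc7a8 (95% interval from -0.94 to 2.36). The largest were -0.92 for Slc1a1 (95% interval from -4.89 to 3.05) and -0.76 for Slc6a19 (95% interval from -2.86 to 1.35), and limma called 0 of the 10 and 0 of 19938 genes (0.0%; 70 genes, 0.351%, at an unadjusted p under 0.05). This test takes the spread of the single shRNA arrays from the siRNA arrays, and its intervals allow differences of several fold between the arms.

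The genes most like 4 of the members over the 8 arrays were searched among 12452 named genes outside the dimmest 33.3%. Slc6a20a was followed most closely by Prkcz (Pearson's r 0.96), Arhgap18 (0.95) and Tcea3 (0.95), each with a Spearman's rho of 0.93. Slc15a1 was followed by Gatad2a (r 0.98), Grip2 (0.97) and Pced1b (0.96), and Slc7a9 by Id4 (0.99), Clk3 (0.98) and Grifin (0.98). Slc3a2 was followed by Cyp27a1 (r 0.97), Homer2 (0.95) and Slc23a1 (0.95). These are the highest of many values over 8 arrays and are given as a description, without a test.

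Among 29 other amino acid and peptide transporters, 0 passed limma's threshold in either direction. An unadjusted p under 0.05 was found for 1 of them, Slc6a20b, and for 1.19% of all genes. In the siRNA mean 14 of the 29 were higher and 15 lower, where 53.6% of all genes were lower. Their median log2 difference was -0.013. The largest differences were those of Slc6a14, a broad carrier of neutral and basic amino acids, at 1.44 (SE 1.00), and Slc7a11, the exchanger of cystine for glutamate, at 1.04 (SE 0.97); Slc6a20b at -0.74 and Slc36a2, a relative of Slc36a1, at -0.59 (SE 0.37) were the lowest. Slc6a14 was at 5.34, 4.20 and 4.37 on the siGFP arrays, 8.79, 5.17 and 4.28 on the siYAP/TAZ arrays, 4.30 on shLacZ 1 and 6.45 on shYAP/TAZ 1. Slc7a11 was at 5.34, 4.95 and 4.99 on the siGFP arrays, 8.89, 4.79 and 4.72 on the siYAP/TAZ arrays, 4.84 on shLacZ 1 and 6.31 on shYAP/TAZ 1. Both were high on siYAP/TAZ 1, less so on shYAP/TAZ 1, and near the lowest values elsewhere. Slc7a5, the light chain of the large neutral amino acid carrier that pairs with Slc3a2, had the same 2 highest arrays, at 10.21 on siYAP/TAZ 1 and 8.85 on shYAP/TAZ 1 against 5.33 to 7.01 elsewhere; it was chosen after its values were seen. Slc3a2 itself was at 10.97 and 11.12 on these arrays, among its 4 lowest values.

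Genes of the amino acid stress response, which ATF4 drives when amino acids run short, included several that were high on the same 2 arrays. In limma's fit 0 of 12 passed the threshold, or an unadjusted p under 0.05. In the siRNA mean 10 of the 12 were higher, as were 9246 of 19938 genes, and the list's median log2 difference was 0.44. In comparison 1, 8 of the 12 were at least 2-fold higher, as were 2.02% of all genes, with a list median of 1.22. In the shRNA arm 3 of the 12 were, as were 1.84% of all genes. The list medians were 0.44 in the shRNA arm and -0.072 and -0.068 in comparisons 2 and 3. Chac1, which degrades glutathione, was at 5.85, 5.42 and 5.35 on the siGFP arrays, 9.18, 5.55 and 5.71 on the siYAP/TAZ arrays, 5.45 on shLacZ 1 and 8.73 on shYAP/TAZ 1. Psat1, of serine synthesis, was at 8.69 on siYAP/TAZ 1 and 7.12 on shYAP/TAZ 1, against 4.94 to 6.18 elsewhere. Asns, asparagine synthetase, chosen after its values were seen, was at 10.93 and 10.19 on these arrays, against 6.80 to 8.76 elsewhere. The lowest of the list were Aldh18a1, of proline synthesis, at -0.59 (SE 0.46) and Sesn2 at -0.18 (SE 0.43). Slc6a20a was at 9.06 and 9.93 on these 2 arrays and at 9.94 on siYAP/TAZ 3. The part of the stress response in the transporter values was not tested.

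**Figure D5:**
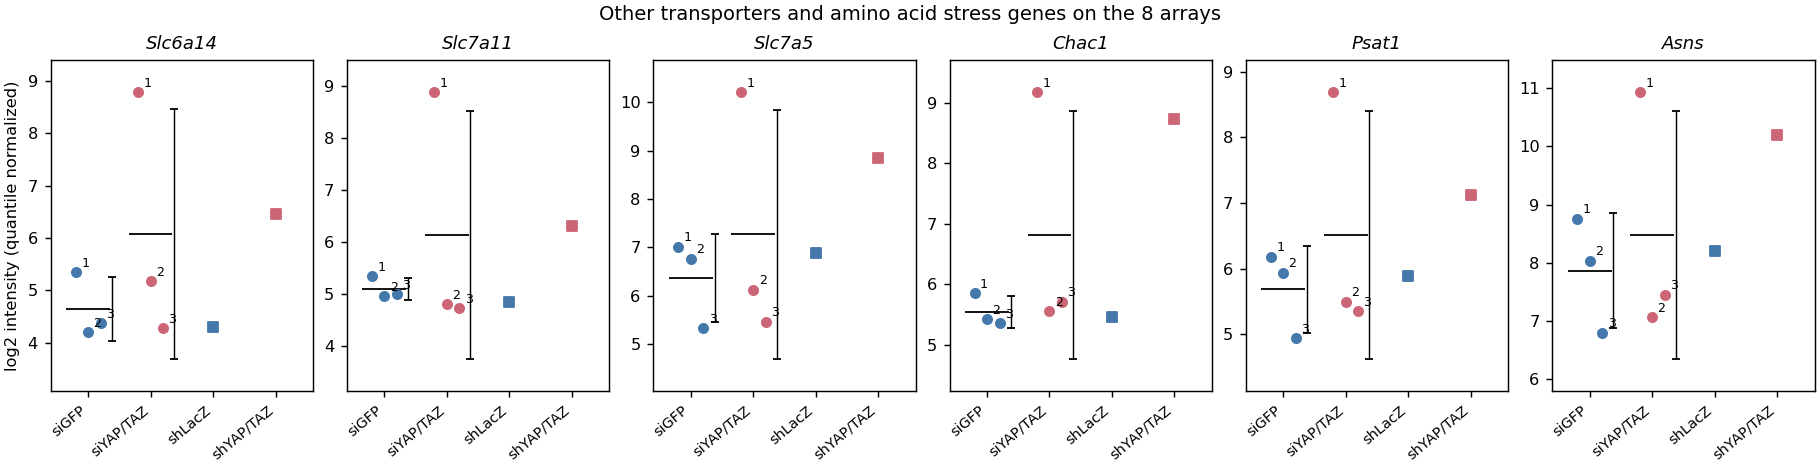
Log2 intensity (y axis) of 3 further transporters (Slc6a14, Slc7a11, Slc7a5) and of 3 amino acid stress genes (Chac1, Psat1, Asns) by group (x axis); points are arrays, lines siRNA group means, bars 1 SD (n = 3) and squares the shRNA arrays. In every panel siYAP/TAZ 1 is the highest array and shYAP/TAZ 1 the next.

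The peptidases that release amino acids and peptides for these carriers were mostly lower in the siRNA mean, with no member past the threshold. Of 12 measured brush border peptidases and transporter partners, 0 passed limma's threshold or an unadjusted p under 0.05, and 9 were lower and 3 higher in the siRNA mean, where 53.6% of all genes were lower. Their median log2 difference was -0.38, against -0.024 over all genes. In the 4 comparisons 0 of them kept 1 direction, where 15.0% of all genes did. The list medians were -0.86, 0.52 and -0.23 in siRNA comparisons 1, 2 and 3 and -0.050 in the shRNA arm. In that arm 7 of the 12 were lower and 5 higher, and 4 were at least 2-fold lower, as were 2.76% of all genes. Xpnpep2, a peptidase that cuts before proline, differed by -0.96 (SE 0.51) and Mep1a, a subunit of meprin, by -0.71 (SE 0.57). Both were higher in comparison 2, at 0.78 and 1.27, and lower in comparison 3, at -2.21 and -2.03. At the other end were Tmprss15, the enteropeptidase that activates trypsin, at 0.71 (SE 0.54), through siYAP/TAZ 3 alone (7.23 against 5.04 to 5.25 on the other 7 arrays), and Cltrn at 0.068 (SE 0.30), a partner of Slc6a19 in the kidney that was dim here, at 5.01 to 5.62.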

How the data were processed

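The authors deposited linear intensity values for 28853 probe sets on each of 8 arrays. Per the labels, total RNA was labelled with the Affymetrix WT kit; no source used here states how probes were corrected, summarised and scaled. On each array the lowest value lay just above 16, so differences of dim genes may be understated. Log2 values of these deposited intensities were quantile normalized, because array medians lay up to 0.32 apart. Of 23410 annotated probe sets, 21789 named 1 gene, and each of 19938 genes was represented by its brightest probe set. The siRNA groups were compared with limma 3.58.1 in R 4.3.3, with Benjamini-Hochberg adjustment over all genes. The code was also run on simulated independent values with a common SD, which does not measure power or error in these data. Alternatives were centring on the 75th percentile, no normalization, leaving out the dimmest 33.3% of genes, averaging probe sets, a trended robust prior, array weights, a replicate block, all 8 arrays in one fit and leaving out each siRNA array. Genes named by rule were the 10 members, Slc6a20b, Yap1, Wwtr1, the 2 largest siRNA differences in each direction of each related list and the 3 genes most like 4 members. Outside that rule, Fabp6 and Slc10a2 were picked from the 12 ileal markers to stand beside Slc1a1. Alpi, Sis, Fabp2 and Apob were named as the villus markers lower in all 4 comparisons. Slc7a5, Asns, Atp1b1 and B3gnt7 were named after their values were seen. The members and lists were chosen with earlier results of these data known. The number of arrays limits the precision.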

Additional observations from a re-analysis of the deposited data

How the results depend on the processing

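None of the 10 transporters passed limma's threshold under any alternative run, and Slc6a20a, Slc36a1, Slc7a8 and Slc3a2 kept their siRNA direction under all of them. Leaving out 1 siRNA array at a time gave 0 to 13 called genes over all genes, the 13 without siYAP/TAZ 1, and leaving out both arrays numbered 1 gave 61. Deviations from the group means correlated at 0.75, -0.13 and 0.57 between the siRNA arrays numbered 1, 2 and 3. Between arrays of unlike number the correlations ran from -0.74 (siGFP 3 and siYAP/TAZ 1) to 0.58 (siGFP 3 and siYAP/TAZ 2). With 3 arrays a group these values cannot settle whether the numbers pair the arrays. The replicate block gave 1 called gene, B3gnt7 (log2 difference 2.65, adjusted p = 0.0118, limma), named after its values were seen. It changed no call on the transporters. With array weights the siRNA log2 differences turned to 0.31 for Slc15a1, 0.33 for Slc6a19, 0.17 for Slc7a7, 0.46 for Slc7a9 and 0.15 for Slc3a1, and without both arrays numbered 1 that of Slc7a9 turned to 0.031; the cause was not tested. With 1 array left out the ranges were -0.39 to 0.27 for Slc15a1, -0.50 to 0.26 for Slc6a19, -0.29 to 0.066 for Slc7a7, -0.33 to 0.30 for Slc7a9, -0.69 to 0.030 for Slc3a1, -1.50 to 0.058 for Slc1a1, 0.48 to 1.62 for Slc36a1, -0.91 to -0.39 for Slc7a8, -0.47 to -0.063 for Slc3a2 and -1.81 to -1.06 for Slc6a20a. The count of transporters with 1 direction in all 4 comparisons was 2 instead of 3 with arrays centred on the 75th percentile or without normalization, where Slc7a7 left it.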

Other observations

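Ion carriers and cytosolic peptidases of the same cells were outside the transporter comparisons. Of 4 measured genes listed as ion pumps and exchangers, among them a scaffold, 0 passed limma's threshold or an unadjusted p under 0.05. In the siRNA mean 3 were lower and 1 higher, where 53.6% of all genes were lower. Slc9a3 stood at 0.86 (SE 0.60). Slc9a2, another sodium and proton exchanger, stood at -0.55 (SE 0.45) and was lower in all 4 comparisons, at -1.26, -0.088, -0.29 and -0.60. Slc9a3r1, a scaffold that binds Slc9a3, stood at -0.35 (SE 0.29) and was lower in all 4, at -0.34, -0.56, -0.15 and -0.30. Atp1b1, a subunit of the sodium pump, was named after its values were seen. It was also lower in all 4 as normalized here, as were 8.95% of all genes. It was at 11.99, 11.86 and 11.85 on the siGFP arrays, 11.70, 11.65 and 11.84 on the siYAP/TAZ arrays, 12.14 on shLacZ 1 and 11.91 on shYAP/TAZ 1. The siRNA groups did not overlap, and 2.99% of all genes had all 3 siYAP/TAZ arrays below the siGFP arrays. The Atp1b1 comparisons of -0.28, -0.21, -0.0078 and -0.22 were small, and comparison 3 turned to 0.060 with arrays centred on the 75th percentile.

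Of 5 measured cytosolic peptidases, which split absorbed peptides, 0 passed limma's threshold or an unadjusted p under 0.05. In the siRNA mean 4 of the 5 were lower, as were 53.6% of all genes. Npepps stood at -0.36 (SE 0.34) and Cndp2, a dipeptidase, at -0.30 (SE 0.46). Pepd, which splits dipeptides that end in proline, was the highest at 0.092 (SE 0.64), and its comparisons spread from -1.31 in the shRNA arm to 0.73 in siRNA comparison 2.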
